A study of Mus musculus and Homo sapiens with 42 samples.

Results

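The transcripts of 9 genes of the DNA methylation and demethylation machinery were followed in mouse tissues and cells with and without Chd9, a chromodomain helicase that remodels chromatin. They comprise the DNA methyltransferases Dnmt1, Dnmt3a and Dnmt3b, their cofactor Dnmt3l, the maintenance factor Uhrf1, the methylcytosine dioxygenases Tet1, Tet2 and Tet3, and the DNA glycosylase Tdg. The genes were chosen by name, for their function, with earlier results of these data known. All 9 are among the 19467 genes listed in each of the 4 mouse tables, of 32764 genes listed in at least 1. The animals were of the strain FVB;129P2-Chd9, in which all coding exons of Chd9 had been deleted in the germline by Cre recombinase under the ACTB promoter, with backcrossing to FVB. RNA came from liver and brain of embryos at embryonic day 15 (E15), with 2 Chd9-/- and 2 Chd9+/+ libraries per tissue. It also came from early-passage primary embryonic fibroblasts (MEFs) of E13.5 embryos of Chd9+/- parents (4 Chd9-/- and 3 Chd9+/+ lines). Embryonic stem cells (ESCs) were early-passage lines kept in N2B27 medium with LIF and 2i, the pair of kinase inhibitors PD0325901 and CHIR99021 (3 Chd9-/- and 3 Chd9+/+ lines). The lymphomas were enlarged lymph nodes of moribund mice that all carried the EμMyc transgene, which drives Myc in B lineage cells, and were Chd9+/+, Chd9+/- or Chd9-/- (3 tumours each). The question was whether loss of Chd9 went with a difference in these transcripts in any of the tissues.

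Cytosine methylation at CpG dinucleotides is copied to the daughter strand after DNA replication by DNMT1, which UHRF1 brings to hemimethylated sites. DNMT3A and DNMT3B place new methyl groups, and DNMT3L, which has no catalytic activity of its own, stimulates them in the germline and the early embryo. The TET enzymes oxidise methylcytosine, and TDG removes the more oxidised bases, which are then replaced by base excision repair. Mouse ESCs in 2i are known for low global DNA methylation, and Dnmt3a is known for its part in the maturing brain.

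The 9 genes lie on 7 autosomes of mm9 (GENCODE vM1) and all are protein-coding. Dnmt1 spans chr9:20711650-20757317 and Uhrf1 chr17:56442744-56462909. Dnmt3a spans chr12:3806007-3914443, Dnmt3b chr2:153475186-153513466 and Dnmt3l chr10:77504692-77526367. Tet1 spans chr10:62267318-62361866, Tet2 chr3:133126643-133207354, Tet3 chr6:83312367-83391672 and Tdg chr10:82092573-82113544. Counts were made per gene over exons, so isoforms were not separated. Exons of Dnmt3a, Dnmt3l and Tdg overlap exons of a gene on the opposite strand (Gm10485, Aire and Glt8d2), and the strand setting of the counting is not given in the sources used here, so reads of these pairs cannot be told apart. The coding sequence of Tdg (1266 bases) has 4 near-identical whole or partial copies elsewhere in mm9 (98.7% to 99.3% identical). The shortest spans only 204 bases and the rest 1244 to 1266. Among them is Gm9855 with up to 801 counts in an ESC library, which makes the Tdg counts uncertain. Uhrf1 has 1 such copy, the X-linked pseudogene Gm5648 (98.2% identical over 1599 bases), with up to 915 counts in an ESC library and at most 55 in any other mouse library.

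The promoters of these genes differ in CpG content. In RefSeq windows of GRCm38.p6 from 250 bases before to 50 bases after a gene's start, the letters CG (the same on both strands) were counted, and all 9 genes had a window. The median over 32851 windows was 7 CG. Tet2 held 57, more than 99.8% of all windows, and the richest window of Dnmt3a held 47. Dnmt1 and Uhrf1 reached 33, Dnmt3b 30, Tdg 26, Tet3 22 and Tet1 17. Dnmt3l alone lay under the median, with 6 in its richest window. The measurements describe sequence only, and methylation of these windows was not measured.

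Libraries held 26064981 to 45422029 counts in the embryonic tissues, MEFs and ESCs and 11729052 to 15820000 in the lymphomas, so scarce transcripts were counted less precisely in the tumours. Levels are given as CPM, read counts relative to the TMM-scaled size of the library, set separately in each tissue, and as CPM per kb of merged exon length wherever genes are compared with each other. The deleted allele still gives a shorter transcript without the open reading frame, so counts of Chd9 do not fall to 0. The Chd9 transcript was lower in every Chd9-/- library than in any Chd9+/+ library of the same tissue, with 31.8 to 36.9 against 124 to 128 CPM in MEFs and 25.9 to 31.7 against 87.9 to 201 CPM in ESCs. Marker lists followed the labels, with liver markers at 167476 to 197236 summed CPM in liver and 674 to 867 in brain. Liver also held erythroid markers at 3801 to 5664 summed CPM, and in whole tissue fewer cells of a type and less RNA per cell cannot be told apart. The sex chromosomes followed the genotype in some tissues. All Chd9-/- E15 libraries expressed Xist (1331 to 1869 CPM) and all Chd9+/+ ones expressed Y-linked genes (188 to 209 summed CPM), whereas in ESCs Y-linked genes stood at 204 to 278 summed CPM in the 3 Chd9-/- lines and at no more than 0.293 in the 3 Chd9+/+ lines. In these comparisons genotype and sex chromosomes cannot be told apart.

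Dnmt1 and Uhrf1, the maintenance pair, were most abundant in ESCs and lymphomas. Uhrf1 averaged 924 ± 125 CPM (SD, n = 6) in ESCs, 396 ± 107 (n = 9) in lymphomas, 133 ± 19.7 (n = 4) in E15 liver, 104 ± 25.7 (n = 7) in MEFs and 30.4 ± 2.66 (n = 4) in E15 brain. With each tissue scaled separately the ranges of liver and MEF libraries overlapped, and every other step in this order was free of overlap. Dnmt1 ran from 617 ± 98.4 CPM in ESCs and 431 ± 119 in lymphomas, whose ranges overlapped, to 218 ± 7.16 in brain, 213 ± 36.9 in MEFs and 166 ± 19.7 in liver. Brain and MEFs overlapped, as did MEFs and liver, and with a single TMM scaling over all 30 libraries liver moved above brain (248 against 214 CPM). Between ESCs and brain Uhrf1 thus spanned a wider range than Dnmt1. In brain the level of Uhrf1 per kb (7.13) was the lower of the pair (Dnmt1 41.4 CPM per kb), and in ESCs the higher (217 against 117 CPM per kb).

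The genes most like Uhrf1 over the 30 libraries, by Pearson's r of log2 CPM among 16134 genes, were the replication helicase genes Mcm5 (r = 0.991) and Mcm3 (0.990) and the replication initiation gene Mcm10 (0.989). For Dnmt1 they were Parp1 (0.973), Wdr18 (0.973) and Vprbp (0.970). The libraries fall into 5 tissues, so these values describe shared tissue patterns. Among the 9 genes themselves Dnmt1 and Uhrf1 were the most alike (r = 0.853). The summed CPM of 15 replication and cell cycle genes was lowest in brain (444 to 508) and highest in ESCs (5232 to 7169), with liver at 2611 to 3797, MEFs at 1481 to 2372 and lymphomas at 4589 to 6468. Uhrf1 followed this order except that MEFs and liver overlapped, and Dnmt1 was as high in brain as in MEFs. With a single TMM scaling over all 30 libraries Uhrf1 in liver (172 to 241 CPM) and MEFs (68.6 to 133 CPM) did not overlap. Each tissue was scaled separately, and the order of brain and liver in Dnmt1 turns with the scaling (169 to 183 in brain against 185 to 235 CPM in liver on the common E15 scale).

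**Figure D1:**
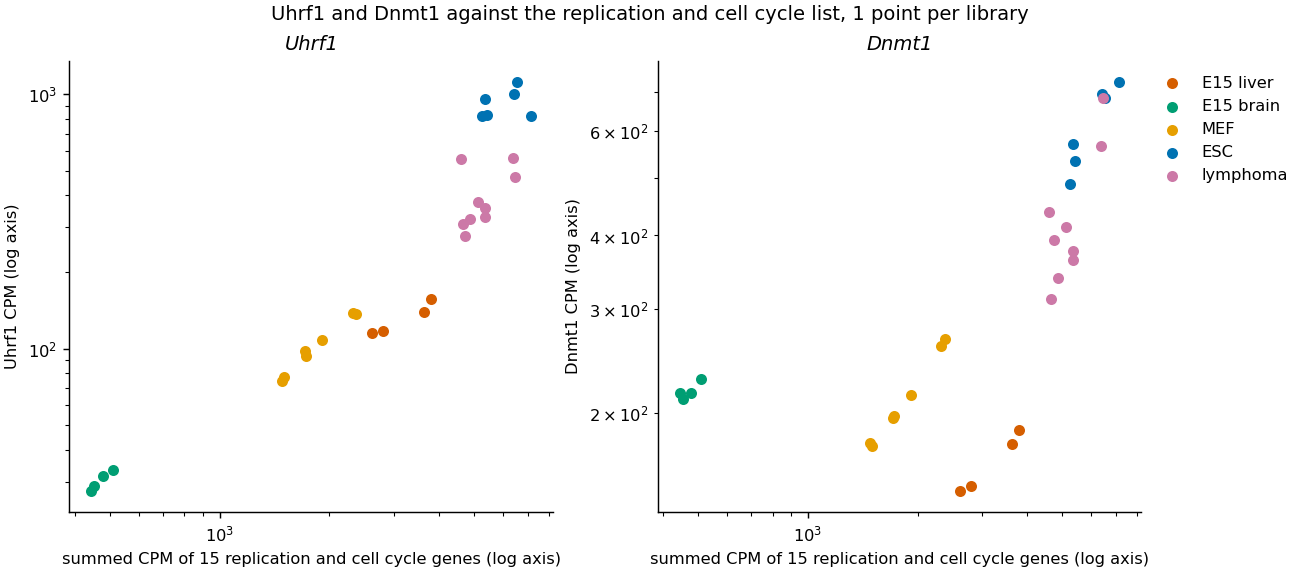
CPM of Uhrf1 (left) and Dnmt1 (right) against the summed CPM of 15 replication and cell cycle genes, both on log axes, with 1 point per library coloured by tissue. Brain lies lowest on both axes for Uhrf1 (27.5 to 33.4 CPM), while its Dnmt1 level (212 to 228 CPM) lies within the range of MEFs (176 to 267 CPM).

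The de novo methyltransferases divided the tissues between them. Dnmt3a was highest in E15 brain at 335 ± 14.4 CPM (SD, n = 4), and the next tissues, liver (90.5 ± 6.13) and lymphoma (90.5 ± 18.1), lay far below without overlap. MEFs (79.3 ± 7.57) and ESCs (67.1 ± 35.3) followed with overlapping ranges. Under a single TMM scaling over all 30 libraries Dnmt3a in liver (130 to 146 CPM) lay above lymphomas (72.1 to 120 CPM) without overlap. Brain (310 to 345 CPM) remained the highest. Dnmt3b was highest in ESCs at 205 ± 71.6 CPM, 8.41-fold above lymphomas (24.4 ± 9.19), and lowest in MEFs at 3.17 ± 0.444. As a share of the sum of both per kb, Dnmt3a took 94.3% ± 0.367 in brain, 88.5% ± 1.57 in MEFs, 66.0% ± 5.11 in liver, 54.1% ± 7.02 in lymphomas and 9.03% ± 2.88 in ESCs. Dividing by the longest transcript instead of the merged exons raised the ESC share to 12.6% and left the order of the tissues as it was. Dnmt3l stood at 161 ± 85.8 CPM in ESCs and 1.87 ± 0.947 in MEFs, and E15 and lymphoma libraries held 0 to 3 counts each. Its closest genes were Trim6 (r = 0.987), Gstp2 (0.982) and Lefty1 (0.981), the last a Nodal antagonist of early development. Dnmt3a was most like Gripap1 (0.932), the Notch ligand gene Dll1 (0.914) and 6330403A02Rik (0.913), and Dnmt3b most like Taf7 (0.960), Usp7 (0.960) and Nfatc2ip (0.952). Usp7 encodes a deubiquitinase that binds both DNMT1 and UHRF1.

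Each Tet gene had its own pattern. Tet1 was highest in ESCs (737 ± 152 CPM), then brain (89.0 ± 5.27), MEFs (23.7 ± 4.32), liver (7.44 ± 0.888) and lymphomas (2.75 ± 2.73), with overlap at the last step only. Tet2 was also highest in ESCs (122 ± 49.6 CPM) but overlapped there with brain (83.9 ± 5.29), and lay at 30.4 to 41.9 CPM on average elsewhere. Tet3 was highest in brain (236 ± 8.74 CPM) and lowest in ESCs (27.5 ± 17.3), with lymphomas at 134 ± 33.4, liver at 87.0 ± 3.33 and MEFs at 75.5 ± 3.47. These steps depend on the scaling. Under a single TMM scaling over all 30 libraries Tet3 averaged 130 CPM in liver, 135 in lymphomas and 71.5 in MEFs. Tet2 in liver (58.7 to 67.4 CPM) then lay above MEFs (27.2 to 41.0 CPM) without overlap. Tet1 in liver (10.0 to 12.5 CPM) then lay above lymphomas (0.145 to 6.94 CPM) without overlap. Per kb, Tet1 made up 75.8% ± 8.79 of the Tet sum in ESCs, and Tet3 was the leading Tet transcript in the other 4 tissues, at 60.8% ± 1.23 in liver, 58.4% ± 1.56 in brain, 56.3% ± 4.93 in MEFs and 77.2% ± 4.4 in lymphomas. Tet1 held 1.17% ± 1.18 of the sum in lymphomas. Dnmt3l and Tet3 were the least alike of all pairs among the 9 genes (r = -0.826 over the 30 libraries). Tet1 was most like Plekhg5 (r = 0.974), Trim13 (0.965) and Stk30 (0.963), Tet2 most like Gm15186 (0.925), Pcsk1 (0.906) and Sall3 (0.904), and Tet3 most like Smap2 (0.928), Ppapdc2 (0.926) and 2610002M06Rik (0.917).

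Tdg varied least between tissues and, within the copies named above, ran from 54.9 ± 8.66 CPM in lymphomas, 51.2 ± 0.600 in brain and 46.7 ± 10.8 in ESCs, all with overlapping neighbours, to 25.2 ± 3.47 in MEFs and 17.4 ± 0.799 in liver. Under a single TMM scaling over all 30 libraries Tdg in liver (24.8 to 28.3 CPM) lay within the range of MEFs (20.1 to 31.0 CPM). Tdg was most like Cdc42se2 (r = 0.958), the transcription-coupled repair gene Ercc8 (0.955) and Bzw2 (0.945). Ranked per kb, Dnmt1 led in liver, brain and MEFs and Uhrf1 in ESCs and lymphomas, although in liver Uhrf1 (31.1 ± 4.64 CPM per kb) and Dnmt1 (31.5 ± 3.74) differed by less than their spread. Division by the longest transcript put Uhrf1 ahead of Dnmt1 in liver and changed the order of some genes in every tissue.

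The ESC lines were examined singly. The biological coefficient of variation over all genes was 0.352 in ESCs, above MEFs (0.239), E15 liver (0.148) and E15 brain (0.0588) and below the lymphomas (0.463). Tet3 stood at 15.9, 9.87 and 11.5 CPM in Chd9-/- lines 1, 2 and 3 and at 35.1, 41.7 and 50.6 CPM in Chd9+/+ lines 1, 2 and 3. The highest knockout line thus lay under the lowest wild-type line. Against the wild-type line of the same number, Tet3 in the knockout lines was 45.2%, 23.7% and 22.8%. The labels of the lines numbered 2 do not share a starting number, so that ratio does not rest on a labelled pair.

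Dnmt3a was lower in each knockout line too, at 36.5, 57.9 and 39.7 CPM against 63.0, 71.7 and 134 CPM in wild type. Dnmt3l stood at 117, 95.4 and 117 CPM in knockout and 131, 177 and 327 CPM in wild-type lines. Neither gene overlapped between the genotypes, but knockout line 2 and wild-type line 1 lay close together for Dnmt3a, and line 3 was far above the other wild-type lines for both genes. Uhrf1 was the reverse case, with 955, 1121 and 1004 CPM in knockout lines and 818, 827 and 819 CPM in wild-type lines, a narrow wild-type group that lay wholly under the knockout lines.

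For the other 5 genes the genotypes overlapped. Dnmt3b ranged from 145 to 216 CPM in knockout and from 140 to 337 in wild-type lines, and Dnmt1 from 572 to 695 and from 488 to 729. Tet1 was highest in knockout line 1 (957 CPM) and wild-type line 3 (879), with the other 4 lines between 584 and 747. Tet2 was low in knockout line 2 (61.8 CPM) and wild-type line 3 (64.6) and stood at 127 to 183 in the rest. Tdg was highest in wild-type line 3 (65.1 CPM) and lay between 33.9 and 49.8 in the others.

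Wild-type line 3 stood apart from the other ESC lines in more than these genes. It had the highest level of Dnmt1, Dnmt3a, Dnmt3b, Dnmt3l, Tet3 and Tdg among the 6 lines. Its naive pluripotency markers were the lowest (3698 against 4993 to 5659 summed CPM), and its primed and lineage markers the highest (122 against 7.12 to 13.2 summed CPM), almost wholly through Otx2, a transcription factor of the primed state, at 113 CPM against 0.635 to 2.29. Other genes of the primed and lineage list did not all follow. Fgf5 was highest in this line (2.67 against 0.192 to 0.682 CPM), but T was lowest (0.0330 against 0.322 to 9.71 CPM). Chd9 was also higher in this line (201 CPM) than in the other wild-type lines (87.9 and 88.5 CPM). The ESC differences of Tet3, Dnmt3a and Dnmt3l are therefore given with and without this line. Those of the wider gene lists are given only with it.

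**Figure D2:**
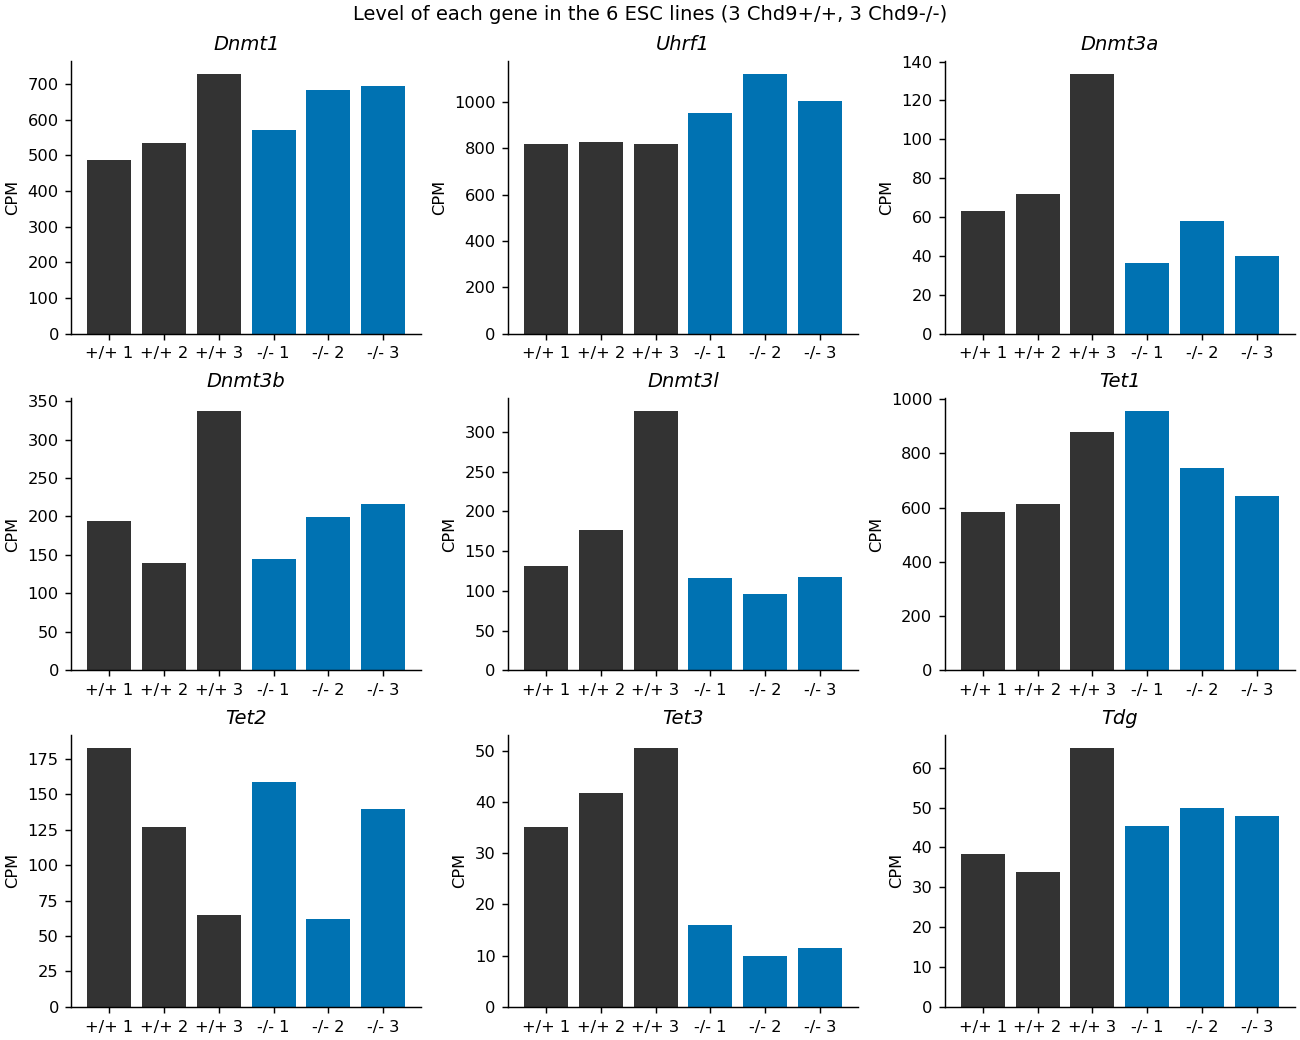
CPM (linear axes from 0) of each of the 9 genes in the 3 Chd9+/+ (black) and 3 Chd9-/- (blue) ESC lines, 1 bar per line. All Chd9-/- bars for Tet3 (9.87 to 15.9 CPM) lie under all Chd9+/+ bars (35.1 to 50.6 CPM), and Chd9+/+ line 3 is the tallest bar for 6 genes.

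With edgeR's quasi-likelihood test and Benjamini-Hochberg adjustment over 15510 genes, 0 of the 9 genes were called between Chd9-/- and Chd9+/+ ESCs, beside 0.155% of all genes tested. At an unadjusted p under 0.05 there were 4 of 9 (Tet3, Dnmt3a, Dnmt3l and Uhrf1), beside 11.9% of all genes, and the same 4 did not overlap between genotypes, beside 18.5% of all genes. DESeq2 called 1 of 9, Tet3, beside 4.64% of all genes. The median log2 fold change of the 9 genes was -0.06, with -0.02 over all genes tested.

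The Tet3 log2 fold change was -1.77 (SE 0.246), with an adjusted p of 0.0511 in edgeR and 1.39e-08 in DESeq2. In edgeR it passed the threshold without a filter on low counts (adjusted p 0.0141) and without wild-type line 3 (log2 fold change -1.63, adjusted p 0.0355), and did not with the replicate number as a block (-1.79, adjusted p 0.0654) or with the starting number of the label as a term (-1.64, adjusted p 0.256). The direction was the same in all 14 settings, between -1.98 and -1.63. Dnmt3a differed by -0.999 (SE 0.317, edgeR adjusted p 0.263) and Dnmt3l by -0.95 (SE 0.317, edgeR adjusted p 0.293). Without wild-type line 3 these differences shrank to -0.59 and -0.49. Uhrf1 differed by 0.32 (SE 0.116, edgeR adjusted p 0.333).

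For the remaining 5 genes the 95% intervals of the ESC difference included 0, and ran from -0.26 to 0.57 for Dnmt1, -1.004 to 0.48 for Dnmt3b, -0.32 to 0.67 for Tet1, -1.08 to 0.97 for Tet2 and -0.53 to 0.64 for Tdg, so a difference of 1 on the log2 scale was within the interval only for Dnmt3b and Tet2. X-linked genes as a whole were lower in the knockout lines (570 of 603 tested, median log2 fold change -0.86, against -0.00 for 14860 autosomal genes). The part of the sex chromosomes and of line 3 in the differences of the autosomal genes above was not tested.

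In E15 liver 0 of the 8 genes tested were called by edgeR between Chd9-/- and Chd9+/+, beside 0.0322% of 15515 genes. At an unadjusted p under 0.05 the count was also 0, beside 2.81% of all genes, and DESeq2 called 0 of 8, beside 0.0902%. Dnmt3l had too few counts for a test in either E15 tissue. The genotypes did not overlap for 4 of 8 (Dnmt3a, Tet1, Tet2 and Tet3), beside 28.5% of all genes, and all 4 were lower in Chd9-/-. Tet1 stood at 6.72 and 6.66 CPM in Chd9-/- and 8.43 and 7.95 CPM in Chd9+/+ liver, a log2 difference of -0.29 (SE 0.118, 95% interval -0.59 to 0.01, unadjusted p 0.0534 in edgeR). Tet2 stood at 40.9 and 38.2 against 45.5 and 43.1 CPM, Tet3 at 85.2 and 83.5 against 88.4 and 91.0 CPM, and Dnmt3a at 87.3 and 84.8 against 91.2 and 98.9 CPM. The gaps between the groups were small beside these levels. Dnmt1 and Uhrf1 divided the liver libraries in another way. Both were high in Chd9-/- replicate 2 (187 and 157 CPM) and Chd9+/+ replicate 1 (178 and 140 CPM) and low in the other pair (148 and 115, and 150 and 118 CPM), and so were the summed cell cycle genes, at 3797 and 3626 against 2611 and 2802 CPM. Dnmt3b was the reverse, at 12.6 and 10.9 against 18.1 and 16.3 CPM.

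In E15 brain 0 of 8 genes were called by edgeR, beside 0.0523% of 17192 genes, and by DESeq2 0 of 8, beside 0.174%. At an unadjusted p under 0.05 there was 1, Tet1, beside 3.42% of all genes. Tet1 stood at 83.5 and 86.1 CPM in Chd9-/- and 90.9 and 95.4 CPM in Chd9+/+ brain, a log2 difference of -0.14 (SE 0.0475, unadjusted p 0.0245, adjusted p 0.999 in edgeR). The genotypes did not overlap for 4 of 8 (Tet1, Tet2, Dnmt3b and Tdg), beside 31.5% of all genes. Tet2 was lower in Chd9-/- brain (76.1 and 85.3 against 86.3 and 87.8 CPM), whereas Dnmt3b (6.40 and 6.48 against 6.08 and 6.01 CPM) and Tdg (51.8 and 51.6 against 51.0 and 50.5 CPM) were higher. With the spread of these brain libraries all 8 intervals of the log2 difference lay between -0.25 and 0.33. The median log2 difference of the 8 genes was 0.02 in brain and -0.03 in liver, with 0.00 and 0.01 over all genes tested.

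The difference between the genotype effects in brain and in liver was tested as an interaction in 1 fit of the 8 E15 libraries. By edgeR 0 of 8 genes were called (beside 0% of 18359 genes), 0 had an unadjusted p under 0.05 (beside 3.51%), and DESeq2 called 0 (beside 0.0436%). For Tet1, lower in Chd9-/- in both tissues, the interaction was 0.16 (SE 0.102, 95% interval -0.08 to 0.39, unadjusted p 0.167 in edgeR).

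The contrast of the tissues themselves was large. Of the 8 genes tested, 7 were called by edgeR between brain and liver in Chd9+/+ embryos, beside 83.7% of 18359 genes, and the same 7 in Chd9-/- embryos, beside 84.1%, so that the count by itself is close to the background. On the common scale of the 8 libraries Tet1 stood at 66.8 to 76.1 CPM in brain and 8.35 to 10.6 CPM in liver, and was 2.86 higher on the log2 scale (SE 0.0746, adjusted p 1.14e-08 in edgeR, Chd9+/+). Dnmt3a (253 to 280 against 106 to 123.1 CPM) was higher in brain by 1.18 (SE 0.0831), Tdg by 0.92 (SE 0.0770), Tet3 by 0.73 (SE 0.0717) and Tet2 by 0.33 (SE 0.0791). Uhrf1 (22.0 to 26.7 against 144 to 197 CPM) was lower in brain, by -2.73 on the log2 scale (SE 0.176), and Dnmt3b by -1.81 (SE 0.225). The adjusted p-values of these 6 genes in edgeR lay between 1.65e-06 and 0.00487. All 3 Tet transcripts and both Dnmt3a and Tdg were thus higher in brain, and Uhrf1 and Dnmt3b higher in liver. The 15 replication and cell cycle genes were all lower in brain, with a median of -2.77, a value close to that of Uhrf1.

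Dnmt1 was the exception. It differed by -0.26 (SE 0.129, adjusted p 0.0889 in edgeR) in Chd9+/+ and by -0.24 (SE 0.129, adjusted p 0.119) in Chd9-/- embryos. With library totals in place of TMM, which moved the median of all genes by 0.63 to 0.66, the difference turned to 0.37 (adjusted p 0.0416) and 0.41 (adjusted p 0.0264), so its direction depends on the scaling. The directions of the other 7 genes were the same under both scalings.

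In MEFs all 9 genes were tested and 0 were called by edgeR, beside 0.0131% of 15218 genes. DESeq2 also called 0 of 9, beside 0.0132%. At an unadjusted p under 0.05 there was 1, Dnmt3a, beside 1.04% of all genes, and it was also the 1 gene of 9 whose genotypes did not overlap, beside 2.06%. Dnmt3a stood at 68.9, 80.0, 76.2 and 72.2 CPM in the Chd9-/- lines and 88.4, 80.7 and 88.9 CPM in the Chd9+/+ lines, a log2 difference of -0.21 (SE 0.0706, unadjusted p 0.0203, adjusted p 1.00 in edgeR). Knockout line 2 lay just under wild-type line 2. The sample labels of the MEFs carry the letter A for knockout lines 1 to 3 and B for all others, and within letter B the 1 knockout line, at 72.2 CPM, lay under all 3 wild-type lines. With the letter as a term the difference was -0.25 (edgeR adjusted p 0.9997).

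The MEF lines differed more in Dnmt1 and Uhrf1 than the genotypes did. Knockout lines 1 and 4 were high in Dnmt1 (267 and 260 CPM) and Uhrf1 (136 and 138 CPM), and they were also the lines with the highest summed cell cycle genes (2372 and 2327 CPM, against 1481 to 1914). In knockout line 3 and wild-type line 1 Dnmt1 and Uhrf1 were the lowest, while Tet2 (45.0 and 43.9 CPM) and Dnmt3l (3.22 and 3.24 CPM) were the highest. Tet1 was low in knockout line 1 (14.7 CPM) and lay between 22.5 and 27.3 in the others. The 95% intervals of the genotype difference ran from -0.18 to 0.58 for Dnmt1, -0.30 to 0.81 for Uhrf1, -0.69 to 0.19 for Tet1 and -0.14 to 0.16 for Tet3, the narrowest of the 9.

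In lymphomas 8 genes were tested, and the 3 comparisons share tumours and are not independent. Between Chd9-/- and Chd9+/+ tumours edgeR called 0 of 8 genes, beside 0.00744% of 13440 genes. At an unadjusted p under 0.05 there was 1 (beside 3.87%), DESeq2 called 0 (beside 0.195%), and 1 of 8 did not overlap (beside 7.46%). Between Chd9+/- and Chd9+/+ edgeR called 0 (beside 0%), 1 had an unadjusted p under 0.05 (beside 4.48%), DESeq2 called 0 (beside 0.113%), and 2 did not overlap, Tet1 and Tdg (beside 9.86%). Between Chd9-/- and Chd9+/- edgeR called 0 (beside 0%), 0 had an unadjusted p under 0.05 (beside 2.43%), DESeq2 called 0 (beside 0.0675%), and 0 did not overlap (beside 8.48%).

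The gene behind the counts of 1 was Tet1. Its counts were 2, 10 and 7 in the Chd9+/+ tumours (0.146, 0.647 and 0.531 CPM), 12, 88 and 96 in the Chd9+/- tumours (1.01, 6.01 and 6.84 CPM) and 22, 25 and 80 in the Chd9-/- tumours (1.90, 1.59 and 6.11 CPM). Every tumour with a deleted allele thus lay above every wild-type tumour, and within each of these genotypes the values spread over several-fold. Tet1 passed the filter on low counts only through the tumours with a deleted allele, since no Chd9+/+ tumour reached its minimum, so the direction of the difference was favoured by the filter and the counts of 1 above support nothing. The log2 difference from Chd9+/+ was 2.83 in Chd9-/- (SE 0.902, 95% interval 0.80 to 4.86, adjusted p 0.9995 in edgeR and 0.302 in DESeq2) and 3.36 in Chd9+/- (SE 0.915, 95% interval 1.30 to 5.42, adjusted p 0.926 in edgeR and 0.155 in DESeq2). With so few counts in the wild-type tumours the size of the fold is poorly fixed. The highest Tet1 level in a lymphoma was below the lowest in MEFs, brain and ESCs.

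Tet3, the leading Tet transcript of the tumours, stood at 82.4 to 153 CPM in Chd9+/+, 133 to 182 in Chd9+/- and 113 to 145 in Chd9-/- tumours, with overlap between all genotypes. Tdg was lower in all Chd9+/- tumours (42.0, 48.2 and 53.8 CPM) than in the Chd9+/+ ones (57.4 to 70.4 CPM), a log2 difference of -0.39 (SE 0.182, adjusted p 0.926 in edgeR). Wild-type tumour 2 had the highest Dnmt1 (683 CPM), Dnmt3a (119 CPM) and Dnmt3b (45.6 CPM) of the 9 tumours and knockout tumour 2 the second highest Dnmt1 (566 CPM). These 2 tumours also had the highest summed cell cycle genes, 6468 and 6378 CPM, against 4589 to 5353 in the rest. T cell markers summed to 126 CPM in knockout tumour 2 and to 6.72 in knockout tumour 1, with 19.7 to 63.5 in the others, and B cell markers to 1761 to 3276 in all 9. The part of other cells in the nodes in these levels was not tested.

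**Figure D3:**
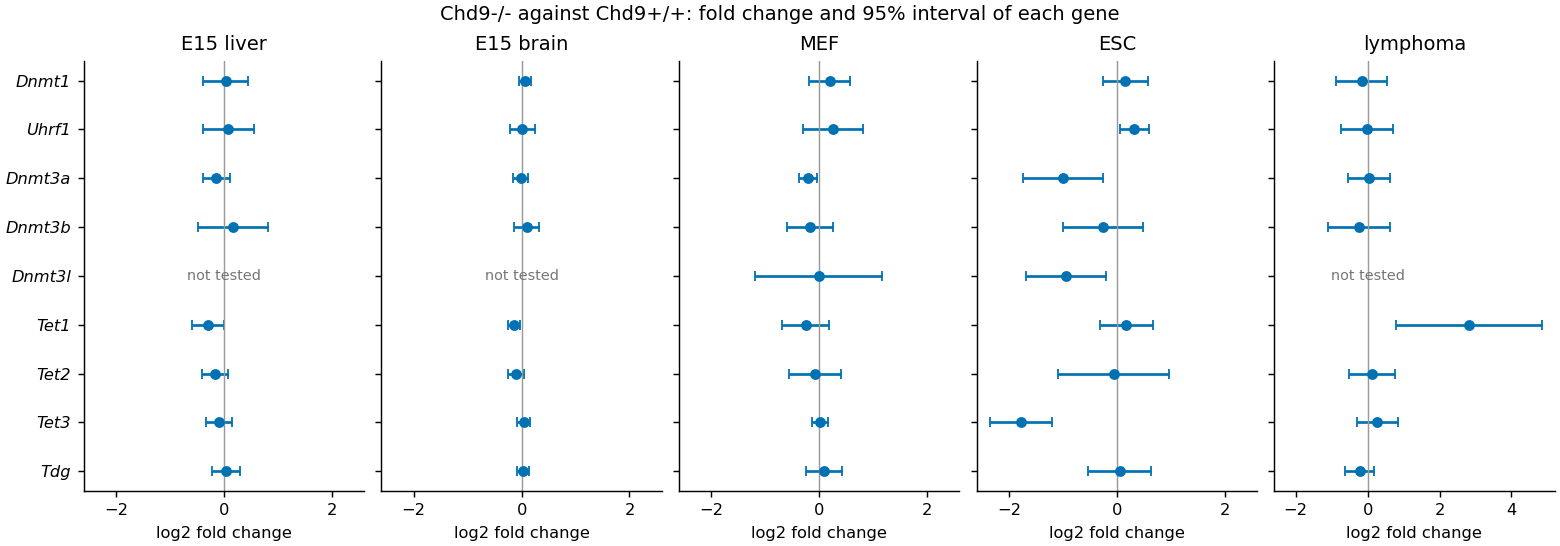
Log2 fold change of each of the 9 genes, Chd9-/- against Chd9+/+, with its 95% interval from edgeR in each tissue; the lymphoma panel has a wider axis, and genes with too few counts are marked as not tested. The interval of Tet3 in ESCs (-2.35 to -1.20) lies farthest from 0 on the lower side, and that of Tet1 in lymphomas (0.80 to 4.86) on the higher side. In lymphomas Tet1 passed the filter on low counts only through tumours with a deleted allele, so its direction there is no support.

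The wider machinery was followed as 79 further genes in 6 lists: partners of maintenance and recruitment, readers of methylated CpG, binders of unmethylated CpG, partners of demethylation and base excision, enzymes of methyl donor supply and enzymes of oxoglutarate supply, the substrate of the TET enzymes. By edgeR 0 were called in any genotype comparison. In ESCs 11 of 74 tested had an unadjusted p under 0.05, beside 11.9% of all genes, and DESeq2 called 4, beside 4.64%, so that both counts are near the background. Among those with the smallest p, both lower in Chd9-/- and X-linked, were the isocitrate dehydrogenase subunit gene Idh3g (188 ± 10.7 against 305 ± 23.6 CPM, n = 3 each, log2 difference -0.70, SE 0.117, adjusted p 0.0692 in edgeR) and the methyl-CpG reader Zbtb33 (-0.76, SE 0.177, adjusted p 0.143). Of the 70 autosomal genes tested 23 were lower, with a median of 0.11, and of the 4 X-linked genes 4 were lower. The DNA glycosylase gene Neil3 was also called by DESeq2 (-1.36, SE 0.353, adjusted p 0.179 in edgeR). It lies on chromosome 8, which also carries Chd9, and the part of this linkage was not tested.

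Elsewhere the counts at an unadjusted p under 0.05 in edgeR were 0 of 74 in liver, 2 of 74 in brain, 0 of 72 in MEFs and 2, 3 and 2 of 70 in the lymphoma comparisons of Chd9-/- with Chd9+/+, Chd9+/- with Chd9+/+ and Chd9-/- with Chd9+/-, and DESeq2 called 0 in each. Over all genes the shares at that p were 2.81%, 3.42% and 1.04% in liver, brain and MEFs and 3.87%, 4.48% and 2.43% in the lymphoma comparisons, so that these counts do not stand out from the background. The 3 genes with the smallest p were Neil2 (-0.65), Fbxl19 (-0.32) and Gadd45b (-0.31) in liver, Smug1 (0.18), Mbd3 (0.13) and Cxxc4 (-0.13) in brain, and Apobec2 (0.87), Morc1 (-0.81) and Gadd45b (-0.22) in MEFs, all as log2 differences of Chd9-/- from Chd9+/+. In lymphomas the histone methyltransferase gene Nsd1 and the stress gene Gadd45b differed from Chd9+/+ by 0.64 and 0.88 in Chd9-/- and by 0.66 and 0.90 in Chd9+/- tumours. The third genes were Kdm1b (0.79) and Cdca7l (-0.50), and between Chd9-/- and Chd9+/- they were Kdm2b (0.82), Ehmt2 (-0.54) and Shmt1 (0.48).

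Between brain and liver, 34 of 75 were called higher and 34 lower by edgeR in Chd9+/+, close to the share called among all genes (83.7%, with 8080 higher and 7291 lower of 18359). The imprint-protecting zinc finger gene Zfp57 was higher in brain by 4.91 (SE 0.0992), Cxxc4, a binder of unmethylated CpG, by 6.57 (SE 0.161), and the folate enzyme gene Shmt1 lower, by -5.21 on the log2 scale (SE 0.124), with adjusted p-values of 5.03e-09, 9.16e-09 and 8.20e-09 in edgeR. By list, 12 of 20 maintenance and recruitment partners were called higher and 7 lower, 7 of 19 base excision partners were called higher and 9 lower, and 2 of 7 oxoglutarate enzymes were called higher and 5 lower. Of 7 binders of unmethylated CpG 4 were called higher and the other 3, all with values below 0, were not called. Of the 13 methyl donor enzymes 10 were called lower and 3 higher in brain (median -2.76), whereas of the 9 methyl-CpG readers 6 were called higher and 3 lower (median 0.65), beside a median of 0.10 over all genes tested.

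Germline genes that DNA methylation is known to silence (10 listed in the ESC table) summed to 152 to 195 CPM in Chd9-/- ESCs and 163 to 250 CPM in Chd9+/+ ESCs, with overlap between the genotypes. The 9 listed for MEFs summed to no more than 4.91 CPM, and the 7 listed for the E15 tissues and the 7 for the lymphomas to no more than 2.87 CPM, so the sums do not cover the same genes. Of the 8 tested in ESCs 6 had values below 0, with a median log2 difference of -0.94 against -0.02 over all genes. The highest Chd9+/+ sum, 250 CPM, was that of wild-type line 3, and these differences were not recomputed without that line. By edgeR 0 of 8 were called (beside 0.155% of all genes) and 2 had an unadjusted p under 0.05 (beside 11.9%), and DESeq2 called 2 (beside 4.64%). These were Hormad1 and the X-linked Taf7l, both lower in Chd9-/- and named after their values were seen. DNA methylation itself was not measured in these samples.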

How the data were processed

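Total RNA was sequenced on a HiSeq2000 from TruSeq libraries. The authors aligned reads with TopHat to mm9 (MEFs, ESCs) or mm10 (E15 tissues, lymphomas), counted them per gene with HTSeq-count and deposited raw counts, 1 column per library. TopHat2 2.1, HTSeq 0.5.3 and DESeq2 are named in the submitters' processing notes. Of the tables' columns 0 belonged to other samples, and the human lines were not analysed here.

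The 9 genes, the lists and the tests were chosen with earlier results of these data known. In R 4.3.3, counts of 30 libraries were scaled by TMM and filtered with filterByExpr per tissue, and tested with edgeR 4.0.16 (quasi-likelihood F-test, prior count 0.125, Benjamini-Hochberg over all genes tested), with calls at adjusted p-values under 0.05. SE is the fold change divided by the square root of F. The 9 lymphomas formed 1 fit, as did the 8 E15 libraries for tissue contrasts. The labels give the same embryo numbers to Chd9-/- livers and Chd9+/+ brains, so embryos were not paired. For the Chd9+/+ livers the labels give neither a starting number nor an embryo number, so their litter is not known from the labels. The authors' methods state that the E15 tissues came from individual embryos. Beyond the labels nothing says whether a liver and a brain share an embryo, or which tumours are separate animals. The p-values measure the spread between these samples. The tests were checked on simulated counts.

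Alternatives were DESeq2 1.42.0, its size factors, other filters, a fold threshold, label terms, the replicate block, other sets of libraries, library totals (added after seeing the data, as was a crossed block in liver) and leaving out each library. In ESCs the labels of lines 1 and 3 share their starting number between genotypes, and those of line 2 do not. Residuals of lines with the same number correlated at 0.473, 0.256 and 0.409. The residuals are centred within each genotype, so these values are not independent of each other. In the other tissues the numbers did not pair the libraries.

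Named genes are the 9, Chd9, the 3 listed genes of smallest p per comparison, the 3 genes most like each of the 9 (mean of at least 1 CPM in 1 tissue, prior count 0.5) and up to 3 markers per list. Neil3, Hormad1 and Taf7l, named as DESeq2 calls in ESCs, were chosen after their values were seen. One gene that this rule names is not reported here. Lengths, positions and copies (blastn) come from GENCODE vM1 on mm9. RefSeq gave promoter windows. Levels compared across tissues come from tables normalized separately.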

Additional observations from a re-analysis of the deposited data

Results flagged for a closer look

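Tet1 was singled out because its genotypes did not overlap in 3 tissues and stood in opposite orders, beside 28.5% of all genes without overlap in E15 liver, 31.5% in E15 brain and 7.46% in lymphomas, so that it is common with 2 libraries against 2. The log2 difference of Chd9-/- from Chd9+/+ was -0.29 in E15 liver and -0.14 in E15 brain, where every Chd9-/- library lay below every Chd9+/+ library, and 2.83 in lymphomas, where every Chd9-/- tumour lay above. None of these differences passed the adjusted threshold in edgeR or DESeq2, and the difference between the embryonic tissues and the tumours was not tested, because they come from separate tables and experiments. In lymphomas Tet1 passed the filter on low counts only through the tumours with a deleted allele, so its order there is no support. Tet1 was counted 2 to 10 times in a Chd9+/+ tumour and 243 to 3890 times in an E15 library. All Chd9-/- E15 libraries expressed Xist. Y-linked genes summed to at most 0.127 CPM in the Chd9-/- lymphomas. In the Chd9+/+ lymphomas they summed to 0 to 272 CPM and in the Chd9+/- ones to 0.0844 to 229 CPM. Both of these genotypes thus held tumours with and without Y-linked expression. The part of the sex chromosomes was not tested. In the group of 4 Chd9-/- MEF lines, tested for a library far from the others, 0 of the 9 genes passed.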

How the results depend on the processing

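Over the alternatives 1195 values of single genes were recomputed. Of these, 1180 kept their direction where called and their side of the threshold, 6 lost it, 7 gained it and 2 reversed. The sign changed for 76 values, all uncalled in the reported tests. In ESCs 1 of 9 genes was called, Tet3, with DESeq2, without a filter on low counts, and without Chd9+/+ replicate 3, so that the count ranged from 0 to 1 when each line was left out. Over all genes ESC calls went from 24 to 690 with DESeq2, 154 without a filter, 8 with a mean of at least 10 counts, 14 with DESeq2's size factors, 5 with the label's starting number as a term, 174 without Chd9+/+ replicate 3 and 3 to 7 without another line. The replicate block, which sets ESC lines of the same number together, left 12 and called 0 of the 9 genes. No call on the 9 genes changed with the block in any comparison.

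In the other genotype comparisons 0 of the genes were called under every alternative. Calls over all genes went with DESeq2 from 5 to 14 in liver, from 9 to 30 in brain, and in lymphomas from 1 to 26, 0 to 15 and 0 to 9, and for the interaction from 0 to 8. They ranged from 11 to 74 when a brain library was left out (74 without Chd9-/- replicate 1). In edgeR they ranged over the alternatives from 0 to 2 in MEFs and in the lymphoma comparison of Chd9-/- with Chd9+/+, and from 0 to 1 in that of Chd9+/- with Chd9+/+ (1 without Chd9+/- replicate 1). Liver gave 9 without a filter, 3 with the replicate block and 167 with replicate 1 of each genotype set against replicate 2 of the other. The same-numbered liver libraries had correlated at -0.519.

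Between brain and liver 4 of 7 calls held in both genotypes when a log2 fold change beyond 1 was also required. That threshold removed Tet2, Tet3 and Tdg. With library totals Dnmt1 reversed to 0.370 in Chd9+/+ and 0.414 in Chd9-/-, following the shift of all genes. Leaving out single libraries gave 7 to 8 called. Dnmt1 was the gene gained in Chd9+/+ without liver Chd9-/- replicate 1 (-0.266, adjusted p 0.0189 in edgeR), without liver Chd9-/- replicate 2 (-0.266, adjusted p 0.0187) or without liver Chd9+/+ replicate 2 (-0.367, adjusted p 0.0433), and in Chd9-/- without liver Chd9-/- replicate 1 (-0.395, adjusted p 0.00777). The cause was not tested. The order of tissues held for 7 of 9 genes with TMM over all 30 libraries (not for Dnmt1 and Tdg). It held for 8 of 9 with library totals (not for Dnmt3a). The order of genes per kb held in 0 of 5 tissues with the longest transcript as length. Depth limits Tet1 in the Chd9+/+ lymphomas (2 to 10 counts) and Dnmt3l in E15 tissues and lymphomas (0 to 3 counts).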
